A study of Mus musculus with 6 samples.

Results

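The genes described here encode subunits and assembly factors of mitochondrial complex I, taken as every row of the deposited table whose symbol begins with Nduf and holds no hyphen. That rule found 49 of 55291 genes: 7 nuclear-encoded core subunits, 29 accessory subunits, 8 assembly factors named Ndufaf, and 5 rows in none of these classes (Ndufa4, Ndufa4l2, Ndufa11b, Ndufb4c and Ndufs6b). The study sequenced RNA labelled as flushed femoral marrow, from 3 wild-type (WT) mice, numbered 1 to 3, and 3 P2rx7 knockout mice, lettered A to C, all aged 6 to 8 weeks. P2rx7 encodes an ion channel opened by extracellular ATP, and the stated purpose was to learn what its loss does to bone. Each library came from a different mouse of its genotype, and the sources used here do not give the strain, the sex or the design of the knockout allele. Values of a gene are listed in the order WT 1 to 3 and knockouts A to C.

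Complex I, or NADH:ubiquinone oxidoreductase, is the entry point for electrons from NADH into the respiratory chain. Its core subunits do the catalysis: those of the arm that reaches into the matrix are encoded in the nucleus and carry the flavin and the iron-sulphur clusters, and those of the proton-pumping membrane arm are encoded by mitochondrial DNA. Accessory subunits surround the core and stabilise it. Assembly factors help to build or modify the enzyme and are not part of the finished complex.

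Library totals were 18716704 to 23575652 counts, and 15478 genes had enough counts to be tested. P2rx7 stood at 10.07, 10.20 and 10.52 FPKM (counts per kilobase of exon, scaled to library size) in WT and at 6.63, 6.37 and 6.24 FPKM in knockouts. Its log2 fold change, here and below knockout over WT, was -0.67 ± 0.05 (SE; edgeR adjusted p = 0.0109), and leaving out knockout B or C ended that call. The tissue label was checked against marker genes. The 6 stromal markers summed to 17834 to 21528 CPM (counts scaled to library size with TMM factors) and the 4 monocyte and macrophage markers to 8037 to 9084 CPM, whereas the erythroid marker Hbb-bs had 0 to 5 counts, Hba-a1 had 0 to 2 and the T cell marker Cd3e had 0. Flushed marrow is normally rich in the red cell lineage and lymphocytes, so the defining markers of these cells were at or near 0 in libraries labelled as marrow, and the values here may not be those of whole marrow. Several marker lists did not overlap between genotypes. The 4 adipocyte markers summed to 609 to 1040 CPM in WT and 1336 to 1619 CPM in knockouts. The 3 osteoclast markers summed to 60.7 to 67.3 and 85.8 to 105 CPM. The 4 osteoblast markers summed to 194 to 457 and 486 to 628 CPM. Of these last, Alpl and Sp7 were separate, whereas Ibsp overlapped (11.5 to 77.5 and 52.8 to 108 CPM) and Bglap had 1 to 7 counts. The 8 erythroid markers, at 107 to 111 CPM in WT and 122 to 133 CPM in knockouts, were nearly all Tfrc, the transferrin receptor, which other cells also express. The 3 cartilage markers summed to 303 to 458 CPM in WT and 223 to 270 CPM in knockouts, a direction set by Col2a1, since Comp went the other way (15.7 to 45.8 and 59.4 to 91.0 CPM) and Acan had 0 to 3 counts. The sums of the stromal markers overlapped, but Cxcl12 was at 1327 to 3168 CPM in WT and 4021 to 4897 CPM in knockouts. Lepr was at 3.47 to 14.3 and 20.6 to 31.3 CPM. Col1a1 went the other way (8515 to 10546 and 7715 to 8402 CPM), and the other stromal markers overlapped. Of the plasma cell markers, whose sums also overlapped, Jchain was at 0.301 to 1.42 CPM in WT and 10.4 to 12.4 CPM in knockouts. The B cell markers (0.702 to 1.08 and 1.12 to 1.66 CPM), the T cell markers (at most 0.1003 CPM) and the pituitary gene Gh given below, all of low level, did not overlap either. Their part in the complex I values was not tested. In bulk samples, more cells of a type and more RNA per cell cannot be told apart.

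Some promoters of complex I genes hold short sequences bound by factors known to act on mitochondrial genes. Windows of 300 bases around the start site (250 before to 50 after, RefSeq, GRCm38.p6) were found for 39 of the 44 genes of the 3 classes. Both strands were searched for 3 motifs, none of which overlapped another in these windows. The centre of the motif of nuclear respiratory factor 1, NRF1 (CGCATGCG), lay in 4 of 39 (10.3%), against 2.77% of 17492 protein-coding genes and 2.07% of all 27025 genes with a window. The ETS motif bound by GABP (CCGGAAG) lay in 6 of 39 (15.4%), against 12.9% and 9.93%. The centre of the YY1 motif (ATGGCGGC) lay in 7 of 39 (17.9%), against 3.5% and 2.6%. At least 1 of the 3 was present in 16 of 39 (41%), against 17.6% and 13.5%. The windows of complex I genes had a median GC content of 59.3%, against 56.3% for protein-coding genes and 52.7% for all windows, and all 3 motifs are rich in G and C. The YY1 matches lay 13 to 38 bases past the annotated start site, except in Ndufa7, where the match lay before it. That motif begins with ATG, and whether these matches are start codons was not checked. Of 42 windows found for the 49 rows, 28 had a start site that lay near a transcript start in GENCODE M21. Windows of Ndufs3, Ndufa9 and Ndufs4 were not among these, so distances from the start are less sure there. A match is a description of letters and not of binding. The stretches below show 1 gene for each motif and the only gene with 2 kinds of motif; they are 60 bases each, with the motif in capitals. Ndufaf4 (NRF1) is from chr4:24897945-24898004, plus strand, Ndufs3 (GABP, on both strands) from chr2:90904701-90904760, minus strand, Ndufa7 (YY1) from chr17:33824448-33824507, plus strand, and Ndufaf8 (GABP and YY1) from chr11:120098904-120098963, plus strand.
Ndufaf4: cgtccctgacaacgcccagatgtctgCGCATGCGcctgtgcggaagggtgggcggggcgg
Ndufs3: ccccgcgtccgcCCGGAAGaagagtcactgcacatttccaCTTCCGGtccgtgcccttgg
Ndufa7: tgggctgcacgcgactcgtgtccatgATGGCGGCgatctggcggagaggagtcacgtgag
Ndufaf8: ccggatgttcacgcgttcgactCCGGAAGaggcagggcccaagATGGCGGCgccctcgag

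Processed pseudogenes carry near-copies of several coding sequences, and this bears on what the counts of a gene can mean. Of the 49 rows, 8 had at least 1 pseudogene elsewhere that matched at 95% identity or more over at least 150 bases (GENCODE M21, GRCm38). The row Ndufa12-ps, a copy at chr5:130188395-130188796, differed from Ndufa12 in 2 of 402 aligned bases. Gm12251, the copy of Ndufs3, differed in 11 of 792. The 60 coding bases shown are bases 135 to 194 of Ndufa12 and bases 391 to 450 of Ndufs3, counted from the start codon. Differing bases are in capitals, and a read that covers none of them fits both rows.
Ndufa12: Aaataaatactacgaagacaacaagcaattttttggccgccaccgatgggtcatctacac
Ndufa12-ps: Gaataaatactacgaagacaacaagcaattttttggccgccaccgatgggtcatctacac
Ndufs3: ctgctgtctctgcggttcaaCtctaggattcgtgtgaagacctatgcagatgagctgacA
Gm12251: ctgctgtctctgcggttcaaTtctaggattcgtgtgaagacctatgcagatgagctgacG

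The share of combined counts that sat on the pseudogene rows, all libraries summed, was 34.8% for Ndufa12, 16.8% for Ndufab1 (on the rows Gm4459 and Ndufab1-ps), 15.3% for Ndufs3 and 10.5% for Ndufs6 (on Ndufs6b, itself one of the 49). It was 1.5% for Ndufs5 and between 0.061% and 0.416% for Ndufb3, Ndufb11 and Ndufb4. How reads that fit several places were counted is not given in the sources used here, so the split between each gene and its copy is uncertain. Adding the copies to their parent genes moved the log2 fold change of Ndufs3 from 0.14 to 0.16 and those of Ndufa12 and Ndufab1 by less than 0.01. Ndufs6b had 52, 55 and 56 counts in WT and 60, 66 and 69 in knockouts. Ndufs6 had 454, 562 and 579 in WT and 509, 435 and 524 in knockouts, and its summed fold change is not given here.

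**Figure D1:**
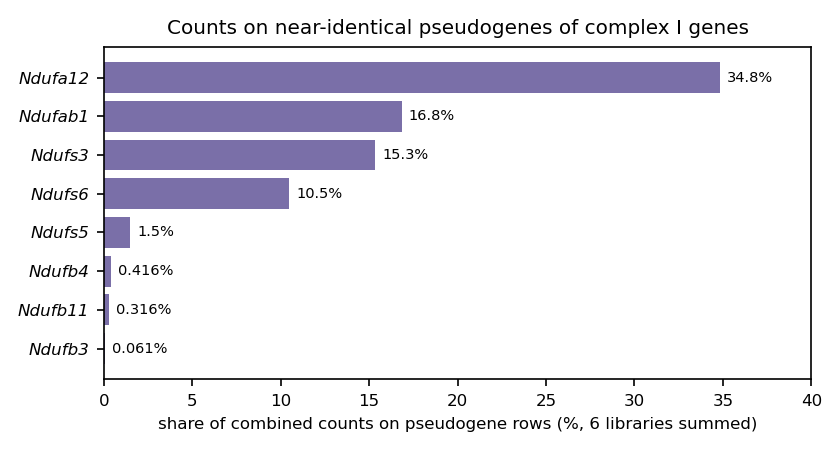
Bars give, for the 8 complex I genes with near-identical processed pseudogenes, the percentage of the combined counts of gene and copies that lay on the copies, over all 6 libraries. Ndufa12 stands apart at 34.8%, followed by Ndufab1, Ndufs3 and Ndufs6 at 16.8%, 15.3% and 10.5%, and the other 4 are at or below 1.5%.

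No complex I gene passed the test between genotypes. Of the 49 rows, 48 had enough counts to be tested, and 0 of 48 had an adjusted p below 0.05 by edgeR's quasi-likelihood test, where 16 of all 15478 genes (0.103%) did. The smallest adjusted p among them was 0.159. An unadjusted p below 0.05 was reached by 5 of 48 (10.4%) with a higher level in knockouts, against 8.35% of all tested genes, and by 0 of 48 with a lower level, against 8.22%. By TMM-scaled CPM, all 3 knockouts lay above all 3 WT in 7 of 48 (14.6%), against 11.5% of all tested genes, and below them in 0 of 48, against 10.4%. By the deposited FPKM, whose library scaling differs slightly, 9 of 48 (18.8%) were separate and higher (Ndufab1 and Ndufv2 in addition), against 11.1% of all tested genes, and 1 was separate and lower (Ndufa11b), against 10.7%. Without knockout A, where the other knockouts alone had to lie beyond the WT mice, 21 of 48 (43.8%) were separate and higher by CPM, against 19.9% of all tested genes, and 0 separate and lower, against 18.2%. Without knockout B or C instead, 18.8% and 14.6% were separate and higher, against 14.7% and 16% of all tested genes. The fold changes were small and mostly of 1 sign: 38 of 48 (79.2%) were above 0, against 51.2% of all tested genes, and the median over the 44 genes of the 3 classes was 0.06 against 0.00 over all genes. These genes were counted in the same 6 libraries and are not independent of each other.

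The data set bounds on the difference between the groups as sequenced. The fit had no term for the sets of libraries given below, where knockouts B and C stand apart from the WT mice. The bounds thus do not tell genotype and set apart. For 43 of the 44 class genes the 95% interval of the knockout to WT ratio, taken gene by gene, lay within 1.5-fold in either direction, and for 27 of 44 it lay within 1.2-fold. The exception was Ndufaf6, with a ratio of 1.25 and an interval of 0.980 to 1.58. A bound of 1.2-fold held for 6 of 7 core subunits, 20 of 29 accessory subunits and 1 of 8 assembly factors. Assembly factors had the fewest counts, 66 to 423 per library, against at least 651 for core subunits and 117 to 1766 for accessory subunits.

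**Figure D2:**
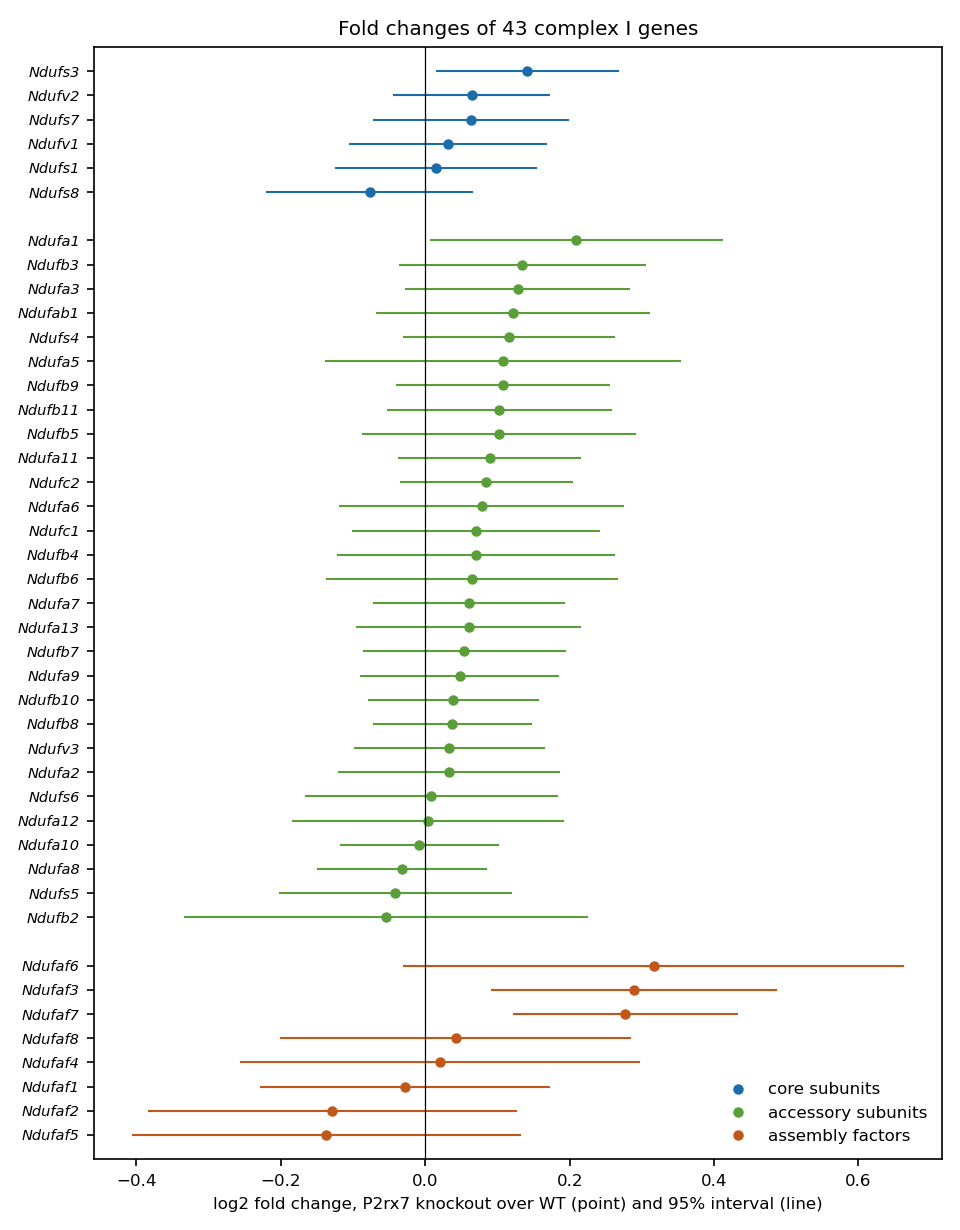
Points are log2 fold changes (knockout over WT) of 43 complex I genes and lines their 95% intervals, sorted within core subunits, accessory subunits and assembly factors. Most points lie a little above 0, most intervals cross 0, and the widest intervals and the points farthest from 0 are among the assembly factors, from -0.14 (Ndufaf5) to 0.32 (Ndufaf6).

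The 7 core subunits ranged from -0.08 (Ndufs8) to 0.14 (Ndufs3) in log2 fold change, with a median of 0.05 and 6 of 7 above 0. Ndufs3, a core subunit of the quinone-reducing module, was at 14.9, 14.2 and 14.7 FPKM in WT and at 15.8, 15.9 and 16.4 FPKM in knockouts. It was the only core gene whose genotypes did not overlap by CPM, at a log2 fold change of 0.14 ± 0.05 (SE; edgeR adjusted p = 0.256). Its counts are among those shared with a pseudogene, and 88 of its exon bases are shared with Kbtbd4 on the opposite strand. Ndufs8, which carries iron-sulphur clusters in the same module, was the core gene below 0. It stood at 29.6, 30.9 and 33.0 FPKM in WT and 28.4, 29.1 and 30.6 FPKM in knockouts, with overlapping genotypes (-0.08 ± 0.06 SE; edgeR adjusted p = 0.568). Ndufv2, an iron-sulphur subunit of the module that oxidises NADH, was at 29.4, 28.7 and 28.9 FPKM in WT and 29.7, 29.7 and 31.1 FPKM in knockouts. By FPKM all knockouts lay above the WT mice, while by CPM knockout A (63.4) lay just under WT 1 (63.5), and the fold change was near its error (0.06 ± 0.05 SE; edgeR adjusted p = 0.522).

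Other core subunits were nearly level. Ndufs1, an iron-sulphur subunit of the NADH module with the lowest FPKM of the core, was at 8.27, 7.65 and 7.30 FPKM in WT and 7.67, 7.68 and 7.99 FPKM in knockouts. Its genotypes overlapped, at a log2 difference of 0.02 ± 0.06 (SE). Ndufv1, which binds the flavin, and Ndufs7, which holds the last cluster before the quinone, differed by 0.03 ± 0.06 and 0.06 ± 0.06.

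Accessory subunits gave values close to those of the core, with a median log2 fold change of 0.06, a range of -0.05 to 0.21 and 25 of 29 above 0. The 9 subunits of the matrix arm had a median of 0.05 and were all above 0, and the 19 of the membrane arm had a median of 0.07 with 15 above 0. Ndufab1, the mitochondrial acyl carrier protein found in both arms, was at 0.12 ± 0.08 (SE). In the matrix arm no gene had separate genotypes. Ndufs4, whose loss in mice gives a model of Leigh syndrome, was at 13.9, 12.8 and 13.1 FPKM in WT and 13.8, 14.1 and 15.03 FPKM in knockouts (0.12 ± 0.06 SE; edgeR adjusted p = 0.399). Knockout A alone fell inside the WT range. Ndufa7 and Ndufa5, both attached to the quinone module, came next by p, at 0.06 ± 0.06 and 0.11 ± 0.11 (SE). Ndufa7 was at 23.57, 24.2 and 25.8 FPKM in WT and 24.6, 26.2 and 25.6 FPKM in knockouts, with overlap. Ndufa5 varied most among the knockouts of these, at 19.1, 16.4 and 21.8 FPKM beside 18.6, 16.95 and 17.9 FPKM in WT. The level was highest for Ndufa2, at 60.5, 59.8 and 62.6 FPKM in WT and 57.6, 65.0 and 63.7 FPKM in knockouts, and lowest for Ndufa12, at 9.97, 10.9 and 10.8 FPKM in WT and 9.90, 10.3 and 11.4 FPKM in knockouts. Both overlapped between genotypes, and their fold changes were 0.03 ± 0.07 and 0.00 ± 0.08 (SE).

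In the membrane arm Ndufa1, a small X-linked subunit, had the largest fold change. It was at 51.7, 42.7 and 45.5 FPKM in WT and 52.9, 56.0 and 51.9 FPKM in knockouts. The genotypes were separate by little, since WT 1 lay just under knockout C (0.21 ± 0.09 SE; edgeR adjusted p = 0.285). Ndufa11, a subunit embedded in the membrane, was at 24.8, 25.4 and 24.4 FPKM in WT and 25.9, 26.9 and 26.2 FPKM in knockouts, also without overlap (0.09 ± 0.05 SE; edgeR adjusted p = 0.447). Its row shares 70 exon bases with Vmac on the opposite strand, and the use of strand in counting is not given in the sources used here. Ndufa3 was at 45.7, 46.0 and 52.0 FPKM in WT and 49.98, 52.0 and 54.3 FPKM in knockouts, and Ndufb3 at 33.1, 31.1 and 33.0 FPKM in WT and 32.6, 36.2 and 37.4 FPKM in knockouts. WT 3 lay within the knockout range of Ndufa3 and knockout A within the WT range of Ndufb3, and both differed by 0.13 ± 0.07 (SE; edgeR adjusted p = 0.382 and 0.399). Ndufc2 had the highest FPKM of all members, at 73.3, 73.7 and 77.9 in WT and 77.2, 81.6 and 78.6 in knockouts. Ndufb2 had the lowest of the 3 classes, at 1.26, 1.04 and 1.10 FPKM in WT and 1.06, 1.16 and 1.04 FPKM in knockouts. Their fold changes were 0.08 ± 0.05 and -0.05 ± 0.12 (SE), and the genotypes overlapped for both.

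The assembly factors were the most spread of the 3 classes. Their median log2 fold change was 0.03, and 5 of 8 (62.5%) were above 0, against 51.2% of all tested genes. An unadjusted p below 0.05 was reached by 2 (25%), both higher in knockouts, against 8.35% of all tested genes. Separate genotypes, all higher in knockouts, were found for 3 (37.5%), against 11.5%. Ndufaf7, a methyltransferase that modifies an arginine of complex I, was at 3.85, 3.76 and 3.96 FPKM in WT and 4.71, 4.55 and 4.69 FPKM in knockouts. The gap between its genotypes exceeded the spread within either, at a log2 fold change of 0.28 ± 0.07 (SE; edgeR adjusted p = 0.159). Ndufaf3, which acts early in building the quinone module, was at 4.36, 4.43 and 4.57 FPKM in WT and 5.23, 5.42 and 5.601 FPKM in knockouts. All 3 knockouts again lay above the WT mice (0.29 ± 0.09 SE; edgeR adjusted p = 0.189), and 48 exon bases of the row are shared with Impdh2 on the opposite strand. Ndufaf6, another factor needed for early assembly, was at 2.78, 2.31 and 2.56 FPKM in WT and 2.89, 3.15 and 3.43 FPKM in knockouts. Its knockout A lay only just above WT 1, and with 66 to 85 counts per library its error was the largest of the class (0.32 ± 0.15 SE; edgeR adjusted p = 0.336).

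The other 5 assembly factors had overlapping genotypes. Ndufaf5, which hydroxylates an arginine of the Ndufs7 protein, was at 5.35, 5.58 and 5.53 FPKM in WT and 4.52, 5.80 and 4.60 FPKM in knockouts. Knockout B lay above the WT mice and the other knockouts below them (-0.14 ± 0.12 SE; edgeR adjusted p = 0.595). Ndufaf8, the partner of Ndufaf5 and the member of the class with the highest FPKM, was at 11.1, 10.98 and 12.4 FPKM in WT and 11.6, 13.01 and 10.8 FPKM in knockouts. Ndufaf2, a chaperone of late assembly with the lowest median FPKM of the 8, was at 2.84, 3.12 and 2.497 FPKM in WT and 2.67, 2.60 and 2.43 FPKM in knockouts. Its row shares 65.7% of its exon bases with the antisense gene B230220B15Rik, which had 0 counts in every library. The fold changes of Ndufaf8 and Ndufaf2 were 0.04 ± 0.10 and -0.13 ± 0.11 (SE). Ndufaf4, which works with Ndufaf3, was the most variable in WT, at 3.37, 4.68 and 3.87 FPKM beside 3.75, 4.21 and 4.09 FPKM in knockouts. Ndufaf1, part of the complex that assembles the membrane arm, was at 7.30, 7.83 and 7.32 FPKM in WT and 6.95, 7.86 and 7.10 FPKM in knockouts. Both were level, at 0.02 ± 0.12 and -0.03 ± 0.09 (SE).

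**Figure D3:**
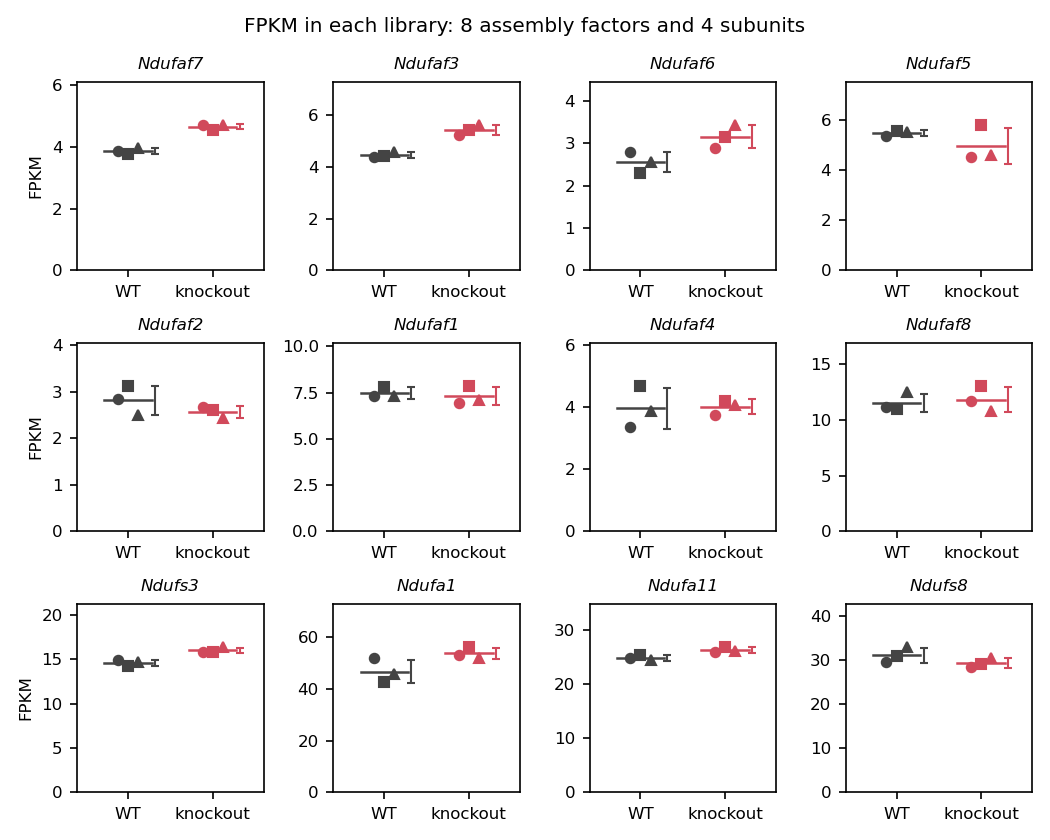
FPKM in WT (grey) and P2rx7 knockout (red) libraries for the 8 assembly factors and for Ndufs3, Ndufa1, Ndufa11 and Ndufs8; circles are WT 1 and knockout A, squares WT 2 and knockout B, triangles WT 3 and knockout C, horizontal lines the means and bars the SD of 3 mice. The knockout points of Ndufaf7 and Ndufaf3 sit above the WT points by more than the spread of either group, while those of Ndufaf5, Ndufaf2, Ndufaf1, Ndufaf4 and Ndufaf8 overlap them.

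Assembly genes that do not carry the Nduf name, a list of 20 symbols including Acad9, Ecsit and Foxred1, gave a like picture. The list also holds genes that are not particular to complex I, such as Bcs1l and Afg3l2. Of the 18 tested, 0 passed the adjusted test, 1 reached an unadjusted p below 0.05, 12 were above 0 and the median log2 fold change was 0.05. Over all tested genes, 8.35% reached such a p with a higher level in knockouts, and 51.2% were above 0. The gene with the small p was Dmac2, which is needed to assemble the distal membrane arm, at 19.5, 18.5 and 20.01 CPM in WT and 21.9, 24.6 and 21.02 CPM in knockouts (0.22 ± 0.08 SE; edgeR adjusted p = 0.235).

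Of the 5 rows outside the classes, Ndufa4 and Ndufa4l2 encode related proteins, the first now counted with cytochrome c oxidase and the second known to be induced by hypoxia. Ndufa4 was at 57.5, 51.8 and 53.3 FPKM in WT and 54.9, 56.7 and 58.3 FPKM in knockouts. Ndufa4l2 was at 8.14, 6.63 and 7.38 FPKM in WT and 7.63, 5.48 and 6.64 FPKM in knockouts. Genotypes overlapped for both, with fold changes of 0.07 ± 0.06 and -0.15 ± 0.14 (SE). The other 3 rows are processed pseudogenes in GENCODE M21. Ndufs6b, the copy of Ndufs6, was at 7.44, 6.83 and 6.96 FPKM in WT and 7.79, 9.99 and 9.88 FPKM in knockouts (0.39 ± 0.17 SE; edgeR adjusted p = 0.301), with knockout A close to WT 1 and the other knockouts well above. Ndufs6 itself was at 0.01 ± 0.08. Ndufa11b was at 7.17, 6.62 and 8.26 FPKM in WT and 6.18, 6.58 and 5.76 FPKM in knockouts, separate by FPKM and overlapping by CPM (-0.25 ± 0.16 SE). Ndufb4c, whose sequence equals that of Ndufb4 over 390 bases, was not tested: its WT counts were 1, 0 and 0 and its knockout counts 3, 1 and 1.

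The excess of fold changes above 0 was not seen in every knockout. A score per library, the mean log2 CPM of the 44 class genes less the mean of the 3 WT, was 0.01, -0.03 and 0.01 in WT, against 0.00, 0.09 and 0.09 in the knockouts. Knockout A thus lay inside the WT range and knockouts B and C above it. Of the 44 genes, 8 in knockout A were above all WT and 8 below, whereas 25 were above and 3 below in knockout B, and 29 above and 4 below in knockout C. Over all tested genes the shares above and below were 26.2% and 25.5% in knockout A, 32.2% and 29.4% in B, and 30.6% and 28.7% in C. Core and accessory subunits had the same order, at -0.01, 0.05 and 0.09 for the core and 0.00, 0.08 and 0.10 for accessory subunits in the knockouts. Assembly factors were at 0.02, 0.16 and 0.07, with knockout A again inside the WT range of -0.02 to 0.02 and knockout B the highest. Summed over the 44 genes, transcripts made up 1551 ± 35.0 CPM in WT and 1613 ± 56.9 CPM in knockouts (SD, n = 3).

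Traces of other tissues, from genes chosen after their values were seen, also divided knockout A from B and C. The growth hormone gene of the pituitary, Gh, was found in WT mice (54, 82 and 75 counts) and knockout A (23 counts) but in neither B nor C (0 counts). The serum albumin gene of the liver, Alb, was found in B (46 counts) and C (36 counts), with 0 elsewhere. Within the set that holds the WT mice and knockout A, 0 of 48 genes passed edgeR's adjusted test, as did 0 of all 16457 tested there. An unadjusted p below 0.05 was reached by 0 of 48, against 2.18% of all genes higher and 1.88% lower, so 0 of 48 is little below the share at large. Fold changes above 0 numbered 25 of 48, against 47.9% of all genes. The medians there were -0.03 for core subunits, 0.01 for accessory subunits and -0.04 for assembly factors. That comparison rests on knockout A alone against 3 WT, and the second set holds knockouts only and gives none. The fold changes of Ndufaf7, Ndufaf3 and Ndufs3 in the first set were 0.28, 0.22 and 0.11. These are among the genes with all knockouts above all WT, so a value above 0 for knockout A was fixed beforehand. Markers of cells that marrow can hold also differed between the knockouts. The 7 neutrophil markers summed to 85.3 CPM in knockout A and to 507 and 448 CPM in B and C, with WT 1 to 3 at 273, 103 and 415 CPM. The 3 endothelial markers summed to 53.6 CPM in knockout A and to 96.3 and 112 CPM in B and C, with WT 1 to 3 at 51.8, 57.7 and 115 CPM. WT 3 thus lay near knockouts B and C in both sums. Among the neutrophil markers, Elane and Mpo were lower in WT 3 than in B and C, and the others were higher. The 3 megakaryocyte markers summed to 200 CPM in knockout A and to 291 and 260 CPM in B and C, with WT 1 to 3 at 254, 221 and 224 CPM. The part of these markers and of the sets in the complex I values was not tested.

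**Figure D4:**
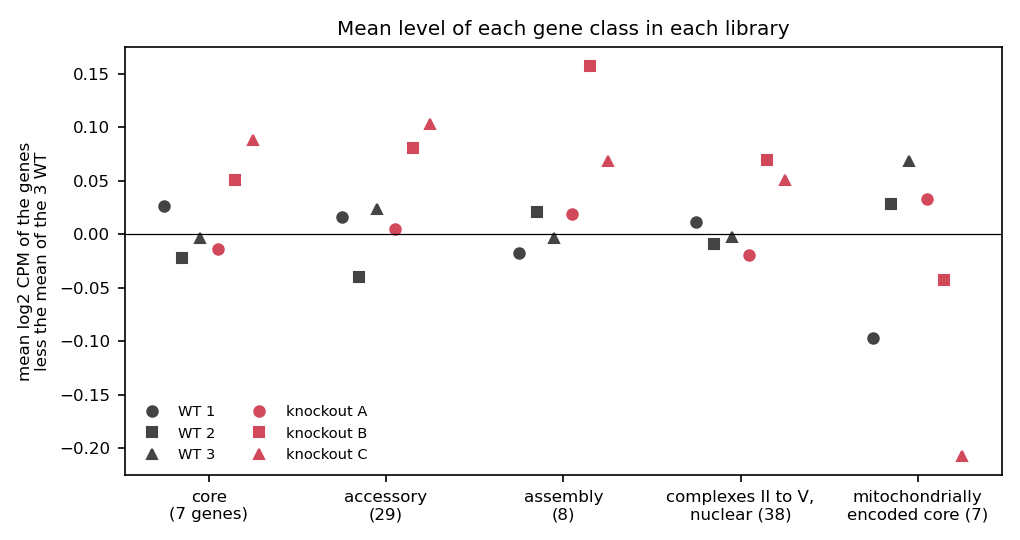
Each point is 1 library, placed at the mean log2 CPM of a gene class less the mean of the 3 WT libraries (grey: WT, red: knockouts; circles, squares and triangles are mice 1 or A, 2 or B and 3 or C). In the 3 nuclear complex I classes and in complexes II to V, knockout A lies at or near the WT points and knockouts B and C above them, while in the mitochondrially encoded core subunits knockout C is lowest at -0.21.

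Other nuclear genes of the respiratory chain also had knockouts B and C above the WT mice. Of 38 tested subunits of complexes II to V, 0 passed the adjusted test and the median log2 fold change was 0.03. An unadjusted p below 0.05 was reached by 3 (7.89%), all higher in knockouts, against 8.35% of all tested genes. Of these 38 subunits, 26 (68.4%) were above 0, against 51.2% of all tested genes. Their score was -0.02, 0.07 and 0.05 in the knockouts, with knockout A just below the WT range of -0.01 to 0.01. The gene with the smallest p was Sdhd, a membrane anchor of complex II, at 65.9, 62.0 and 63.1 CPM in WT and 71.0, 74.7 and 72.8 CPM in knockouts (0.19 ± 0.05 SE; edgeR adjusted p = 0.159). A difference between complex I and these complexes was not tested.

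The 7 core subunits encoded by mitochondrial DNA leaned the other way, with 6 of 7 fold changes below 0 and a median of -0.08, and 0 of 7 passed the adjusted test. Their summed level was 11066 ± 539 CPM in WT and 10427 ± 574 CPM in knockouts (SD, n = 3). These groups overlapped: the sums were 10533, 11053 and 11611 CPM in WT against 10789, 10727 and 9766 CPM in knockouts, so only knockout C lay below every WT. Mt-Nd6, the gene on the other strand of the mitochondrial genome, was the member whose genotypes were separate and lower in knockouts, at 1126, 1101 and 1189 CPM in WT and 1096, 1015 and 822 CPM in knockouts (-0.22 ± 0.10 SE; edgeR adjusted p = 0.335). Mt-Nd3 was separate and higher, at less than 1 CPM in every library. Ndufb1-ps, the row for the remaining accessory subunit, left out by its hyphen, was at 0.11 ± 0.07 (SE).

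Across classes the level differed more than between genotypes. The median FPKM, over genes of their medians over 6 libraries, was 23.5 for core subunits, 23.7 for accessory subunits and 4.58 for assembly factors, so all 8 assembly factors, at 2.63 to 11.4 FPKM, lay below the median of the other classes. Among assembly factors the order in WT, by FPKM over all exons, was Ndufaf8 (11.5 ± 0.809 FPKM), Ndufaf1 (7.48 ± 0.301), Ndufaf5 (5.49 ± 0.124), Ndufaf3 (4.455 ± 0.108), Ndufaf4 (3.97 ± 0.663), Ndufaf7 (3.86 ± 0.1003), Ndufaf2 (2.82 ± 0.312) and Ndufaf6 (2.55 ± 0.237) (SD, n = 3). Neighbours from Ndufaf3 to Ndufaf4, Ndufaf4 to Ndufaf7 and Ndufaf2 to Ndufaf6 were within their spread. In knockouts Ndufaf3, at 5.42 ± 0.188 FPKM, stood beside Ndufaf5, at 4.97 ± 0.718 FPKM (SD, n = 3), again within the spread.

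The order of subunits and assembly factors depended on the length used. The deposited FPKM divides by the union of all exons, which for Ndufs1 is 12.4 times its median protein-coding transcript, for Ndufb5 7.99 times, for Ndufb7 7.26 times and for Ndufab1 6.99 times. Per kilobase of the median coding transcript, Ndufs1 moved from the lowest of the core to 95.5 CPM per kb, and Ndufs3 became the lowest at 31.9. For Ndufs1 that length is 651 bases, the median of 7 annotated protein-coding transcripts. Whether annotated transcripts are complete was not checked, so the ratio of 12.4 and the place of Ndufs1 among core subunits are uncertain. By this length the class medians were 46.0 for core subunits, 52.1 for accessory subunits and 8.68 CPM per kb for assembly factors, in the same order of classes. Among assembly factors Ndufaf2 moved most, from the lowest median FPKM over the 6 libraries (2.63) to 14.1 CPM per kb, next to Ndufaf8 at 15.7, while Ndufaf1 stood at 7.57 CPM per kb and Ndufaf6 became the lowest at 3.24. Ndufb2 was the lowest accessory subunit by either length, at 2.505 CPM per kb. These lengths change levels between genes and not the fold change of a gene.

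**Figure D5:**
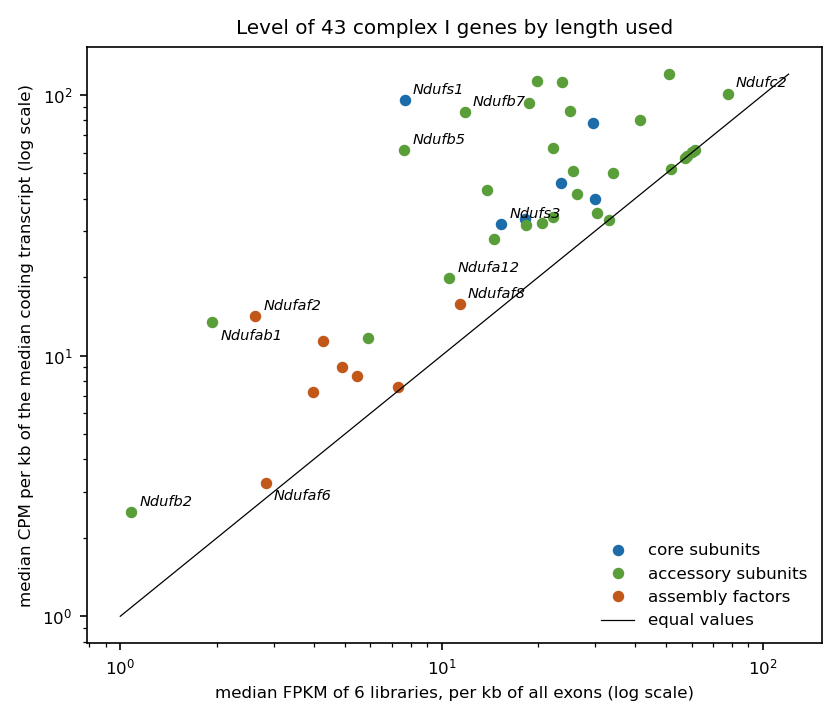
Each point is 1 of 43 complex I genes, with its median FPKM (per kb of all exons) on the horizontal log axis and its median CPM per kb of the median coding transcript on the vertical log axis; the line marks equal values. Assembly factors lie low on both axes, and Ndufs1, Ndufb5, Ndufb7 and Ndufab1 lie far above the line.

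The 44 genes are spread over 17 chromosomes, with at most 6 on one (chromosome 17) and 2 on the X chromosome, Ndufa1 and Ndufb11. The 3 genes with separate genotypes among assembly factors lie apart, Ndufaf7 at chr17:78937136-78948052 (plus strand), Ndufaf3 at chr9:108565537-108567434 (minus strand) and Ndufaf6 at chr4:11051045-11076205 (minus strand), all in GRCm38. Exons of 18 of the 44 share bases with another gene's row.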

How the data were processed

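RNA-seq counts of 6 marrow libraries, 3 of each genotype, were used from 1 table. The authors deposited raw counts and FPKM per gene symbol, and per the submitters' processing notes the builds are GRCm38 and mm10. The sources used here do not give the aligner, the counter, the annotation or the strand setting. The deposited FPKM equals the count over summed exon length and an effective library size, in 100% of values above 0 (tolerance 1e-05).

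Counts were tested with edgeR 4.0.16 in R 4.3.3 (filterByExpr, TMM, glmQLFit, glmQLFTest, two-sided), with Benjamini-Hochberg adjustment over 15478 genes and a threshold of 0.05. The code was checked on simulated counts. SEs are those implied by the test, and intervals cover 95%. CPM are TMM-scaled, and scores use a prior count of 2. Copies were sought with blastn 2.17.0. The members, classes and lists were chosen with earlier results of these data known. Genes shown in every library were, per class, the 3 of smallest p and those of highest and lowest FPKM, and those with separate genotypes. For assembly factors all were shown. Of the 44 class genes, 1 is not reported here by name or drawn in the plots of 43 genes; class counts and medians include it. Alternatives covered scaling, filter, DESeq2 1.42.0, limma 3.58.1 on log2(FPKM + 1), robust fitting, each library left out, the sets of libraries and summed pseudogenes.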

Additional observations from a re-analysis of the deposited data

How the results depend on the processing

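The count of complex I genes past the adjusted threshold was 0 under all 16 alternatives, 1 of which (pseudogene counts summed) was chosen after seeing the data, while the 2 built on the sets of libraries rest on earlier results of these data. Their lowest adjusted p ranged from 0.0966 (without WT 3) to 0.969 (first set of libraries only). The count of all genes called was 16, and it became 970 without a filter, 496 with DESeq2, 10 with limma, 0 to 172 with 1 library left out (0 without knockout B or C), and 0 in the first set or when the set was a term. Members with an unadjusted p below 0.05 numbered 5, and then 3 without a filter, 1 with DESeq2, 2 to 6 with 1 library left out (2 without WT 2 or knockout C, 3 without knockout B), 0 in the first set and 1 when the set was a term. Members with separate genotypes numbered 7, all higher in knockouts, and then 11 without a filter (10, or 20.4%, higher against 7.85% of all genes, and 1 lower) and 18 in the first set (9, or 18.8%, higher against 25.4% of all genes, and 9 lower against 26.1%). With 1 library left out, which makes separation easier in all genes, they numbered 8 to 21: 21 without knockout A (43.8% higher, against 19.9% of all genes), 15 without WT 3 (29.2% higher against 20.7%), 14 without WT 1 (27.1% against 16.6%) and 12 without knockout B (18.8% against 14.7%). Of those 12, 3 were lower (6.25%, against 13.6%). Without WT 2, 16.7% were higher, against 14.3% of all genes. Without knockout C, 14.6% were higher, against 16% of all genes.

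The median fold changes were -0.0266 (core), 0.0072 (accessory) and -0.0389 (assembly) in the first set, and -0.0237, 0.0103 and -0.0358 when the set was a term. The second set holds knockouts only, so both fold changes rest on knockout A against the WT mice and are not separate checks. With 1 library left out they ranged from 0.0148 to 0.0824 for the core, 0.0371 to 0.0993 for accessory subunits and -0.0269 to 0.0763 for assembly factors, whose lowest value was without knockout B. P2rx7 lost its call without knockout B or C, in a range of -0.689 to -0.654 over the libraries left out, and also in the first set (-0.639) and when the set was a term (-0.636).

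Some fold changes near 0 changed sign. In the first set they were -0.102 for Ndufa12, -0.0906 for Ndufa2, -0.00218 for Ndufa7, -0.0921 for Ndufaf4, -0.0197 for Ndufs1, -0.034 for Ndufs7, -0.0385 for Ndufv1 and 0.0409 for Ndufa4l2. When the set was a term, again in effect knockout A against the WT mice, they were -0.0987 for Ndufa12, -0.0876 for Ndufa2, -0.0893 for Ndufaf4, -0.0166 for Ndufs1, -0.0309 for Ndufs7, -0.0354 for Ndufv1 and 0.0443 for Ndufa4l2. Ndufa12 was also at -0.00144 with DESeq2 size factors, -0.00432 without a filter, -0.00163 with DESeq2, -0.00393 with limma and -0.000301 with pseudogenes summed. With 1 library left out the ranges were -0.0599 to 0.054 for Ndufa12, -0.115 to 0.0245 for Ndufb2, -0.0843 to 0.15 for Ndufaf4, -0.0869 to 0.0128 for Ndufaf1, -0.0262 to 0.0649 for Ndufs1, -0.00758 to 0.0641 for Ndufv1, -0.0049 to 0.0909 for Ndufa2, -0.036 to 0.103 for Ndufaf8 and -0.000647 to 0.202 for Ndufa5. Of 767 values of tested members under the alternatives, 714 kept their sign and 53, from 21 members, did not. The cause was not tested. No paired analysis was possible because the WT mice carry numbers and the knockouts letters. With 3 mice a group, changes smaller than the intervals given above were not detectable.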
